A study of Arabidopsis thaliana with 12 samples.

Results

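The comparison was between seed coat and embryo of 1 genotype, the Arabidopsis thaliana double mutant Atsdr4l-5 dig2, and it rested on 6 of the 12 poly(A) RNA-seq libraries of the study: 3 of mutant seed coat and 3 of mutant embryo, chosen by their labels. Of the others, 3 came from seed coat and 3 from embryo of the wild type Col-0, and they were used only to ask whether a tissue difference of the mutant had the same size in the wild type. Plants of both genotypes grew in 16 h light and 8 h dark, seeds were harvested at maturity about 18 days after pollination, kept dry for 2 days, and wetted for 1 to 2 h so that they could be opened by hand. The fraction labelled seed coat also held the endosperm, so "seed coat" below means both layers, and none of their genes can be assigned to 1 of them. The kind of lesion carried by either mutant allele was not stated in the labels used here.

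The mature Arabidopsis seed holds an embryo that has stored protein and oil and become tolerant of drying, a single living layer of endosperm around it, and a seed coat whose cells are largely dead at maturity and carry tannins. Abscisic acid, made and exported partly by the endosperm, keeps the maturation programme on and holds back germination, and gibberellin opposes it. DIG2 belongs to a small family of transcriptional repressors that are induced by abscisic acid, and SDR4-LIKE is known as a regulator of the passage from dormancy to germination.

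Seed coat and embryo of the mutant differed widely. Of 16238 genes with enough reads to test, 2749 (16.9%) were higher and 2920 (18.0%) were lower in seed coat, so that 5669 genes (34.9%) were called at an adjusted p below 0.05 (edgeR quasi-likelihood test, Benjamini-Hochberg adjustment). With the replicate number as a block in the fit, 7416 genes were called. Of the 5669, 1251 (7.70% of genes tested) had a fitted value at least 2-fold higher in seed coat and 1249 (7.69%) at least 2-fold lower. No test against a 2-fold difference was made. The 3 seed coat libraries lay wholly above or below the 3 embryo libraries for 7818 genes (48.1%). All levels below are counts per 1e6 reads (CPM) after TMM scaling, and all fold changes are log2 of seed coat over embryo unless another direction is named.

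Library size was similar in both tissues, with 13685009 to 15923520 gene reads in seed coat and 13927944 to 17619031 in embryo. Log expression correlated at 0.974 to 0.986 among seed coat libraries, 0.973 to 0.991 among embryo libraries and 0.879 to 0.908 between tissues, and library 2 had the lowest correlations in both tissues. TMM factors, which scale the libraries, were 0.749 to 0.820 in seed coat and 1.002 to 1.081 in embryo. With total reads as the only scaling, the median gene moved to a log2 fold change of -0.43 in place of -0.01, and 1282 genes were higher and 8168 lower. Every direction below is relative to the bulk of genes. Member counts given below for total reads stand beside these 1282 higher and 8168 lower of 16238 genes.

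**Figure D1:**
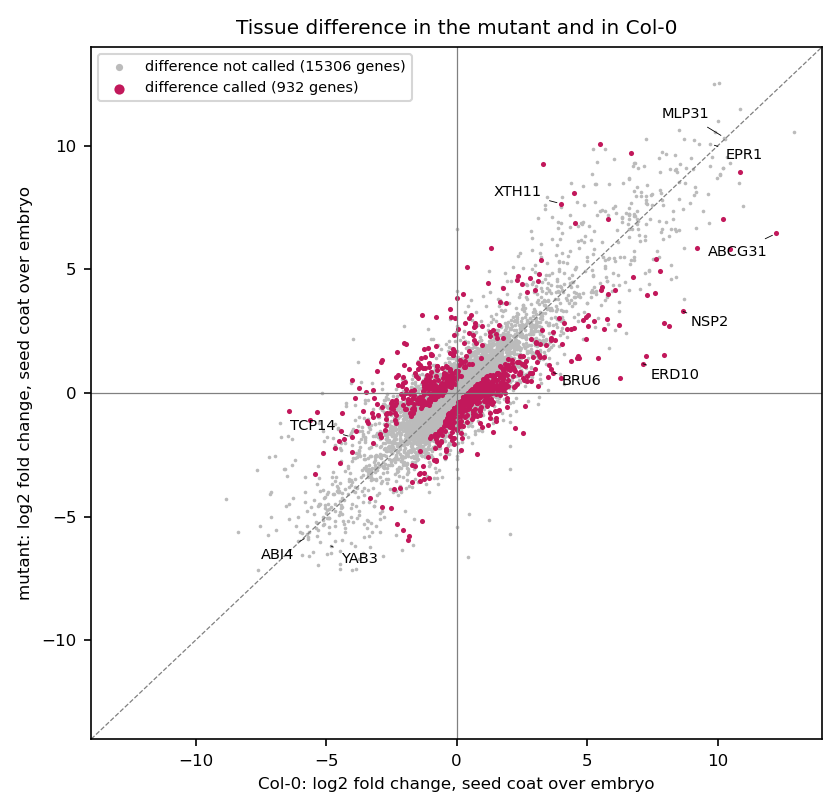
Log2 fold change of seed coat over embryo in the mutant (vertical axis) against the same quantity in Col-0 (horizontal axis) for the 16238 genes tested; 1 point is 1 gene, and the dashed line marks equal values. The cloud follows the dashed line (Pearson r = 0.856 across genes, which are not independent replicates), and coloured points are the 932 genes whose 2 values differed by test.

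The labels of both tissues were checked with marker genes. Of 25 embryo markers, which are regulators of shoot, root and leaf polarity, 16 were tested, 12 were lower in seed coat, 1 (ZPR3, a small leucine zipper protein) was higher and 3 were not called. Their summed level was 54.3 to 60.8 CPM in seed coat and 112 to 122 CPM in embryo, and 8 to 11 of the 25 had 0 reads in a seed coat library, against 6 or 7 in an embryo library. Of 20 seed coat markers 12 were tested, and 8 were higher, 1 was lower and 3 were not called, with sums of 257 to 393 CPM in seed coat and 135 to 159 CPM in embryo. Between 1 and 2 seed coat markers had 0 reads in a seed coat library, against 10 to 13 in an embryo library. Markers with hardly any reads in 1 tissue, such as DFR, LDOX and TT10 in embryo, could only be called towards the other. The marker counts are therefore a description. Of 16 endosperm markers 5 were tested, and EPR1 alone was called. The summed level of the rest was 78.2 to 89.2 CPM in seed coat and 93.1 to 104 CPM in embryo, with 7 to 9 and 10 to 11 of the 16 at 0 reads. With the replicate block the endosperm list had 2 higher and 2 lower. Most of that list is known from young endosperm. Its NCED6, ICE1, AGL80 and AGL62 were not called (adjusted p = 0.0505, 0.163, 0.572 and 0.0538; 9.1e-05, 0.036, 0.50 and 0.018 with the replicate number as a block). In these bulk samples fewer cells of a type and less RNA per cell cannot be told apart.

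Reads of the most tissue-bound genes gave a limit to how much of one tissue could have been carried into the other. EPR1 in embryo libraries 1, 2 and 3 stood at 0.0934%, 0.0640% and 0.119% of its level in the seed coat library of the same number, and AT1G14950 at 0.0800%, 0.0589% and 0.0988%. The other 3 seed coat genes so measured stood between 0.0606% and 0.835%. In the other direction, the aquaporin gene PIP3 in seed coat stood at 0.619%, 0.434% and 1.95% of its embryo level and the leaf polarity gene YAB3 at 0.394%, 0.399% and 2.86%. Of the other embryo genes so measured, ABI4 stood at 2.94%, 1.17% and 1.32%, the cell wall linker gene CWLP at 1.32%, 4.07% and 1.35%, and AN3 at 2.71%, 1.88% and 2.88%, so that the library with the highest share was not the same for every gene. These shares are upper bounds on the carried-over tissue for these genes alone.

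EPR1 (AT2G27380, chr2:11713411-11715774, plus strand, TAIR10), which codes for a proline-rich, extensin-like cell wall protein known from the endosperm, was the most read gene of the seed coat. It took 15.3%, 15.1% and 14.4% of all gene reads in the seed coat libraries, against 0.0191%, 0.0128% and 0.0230% in the embryo libraries. Its level was 202218, 184338 and 192443 CPM in seed coat and 189, 118 and 230 CPM in embryo, a log2 fold change of 10.08 (SE 0.38, adjusted p = 1.15e-09). In Col-0 it took 14.6% of seed coat reads and 0.0240% of embryo reads, and the tissue difference of the mutant could not be told from that of Col-0 (difference 0.35, adjusted p = 0.64).

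Small proteins of the major latex protein family (MLP), which bind hydrophobic ligands, formed the next block. Of 18 members 6 passed the read filter, and all 6 of those were higher in seed coat, with a median log2 fold change of 9.13 beside -0.01 for all genes tested. AT1G14960, with almost no embryo reads, passed through seed coat alone, so the count is a description. Together the 6 took 1.85%, 1.92% and 1.79% of seed coat reads and 0.0118%, 0.0130% and 0.0145% of embryo reads. AT1G14950 (chr1:5157336-5158269, minus strand) measured 14840, 14657 and 15171 CPM in seed coat and 11.9, 8.64 and 15 CPM in embryo (log2 10.29, SE 0.28, adjusted p = 7.83e-11). MLP31 (AT1G70840) measured 5358, 4932 and 4524 CPM in seed coat and 3.25, 3.65 and 4.55 CPM in embryo (log2 10.33, adjusted p = 5.04e-11). AT1G14960, which lies beside AT1G14950, had 43.5, 43.9 and 43.1 CPM in seed coat and 3 reads in all of the embryo libraries, a ratio of 722 (95% interval 247 to 3507, counting error only). AT1G14940 had 2190, 1946 and 2243 CPM in seed coat and 4.31, 3.52 and 5.08 CPM in embryo, and its log2 fold change of 8.94 was smaller than the 10.87 of Col-0 (difference -1.93, adjusted p = 0.0044). Genes AT1G14930 to AT1G14960 lie side by side and resemble each other, so reads that fit several of them may be missing from their counts.

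The 250 bases before the annotated start of EPR1 and AT1G14950, 2 highly read genes of the seed coat side, are shown beside those of EM1 and GEA6, the 2 called genes of the LEA list with the widest gap towards embryo (values below). They are read 5′ to 3′ on the strand of the gene from the TAIR10.1 reference of RefSeq, which has the chromosome sequences of the TAIR10 build. Capitals mark the RY element CATGCA, to which B3 factors such as FUS3 bind, or the core ACGTG of the abscisic acid response element, both searched on both strands.
EPR1 (chr2:11713161-11713410, plus strand): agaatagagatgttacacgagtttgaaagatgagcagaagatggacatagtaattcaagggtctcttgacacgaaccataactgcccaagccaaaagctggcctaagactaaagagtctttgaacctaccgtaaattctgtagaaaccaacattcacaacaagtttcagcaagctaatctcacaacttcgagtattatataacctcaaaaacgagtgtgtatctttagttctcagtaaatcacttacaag
AT1G14950 (chr1:5158270-5158519, minus strand): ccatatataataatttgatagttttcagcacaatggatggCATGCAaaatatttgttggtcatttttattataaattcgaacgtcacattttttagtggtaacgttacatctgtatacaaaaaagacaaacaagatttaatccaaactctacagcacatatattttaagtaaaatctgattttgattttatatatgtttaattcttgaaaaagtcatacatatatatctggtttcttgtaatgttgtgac
EM1 (chr3:19214472-19214721, plus strand): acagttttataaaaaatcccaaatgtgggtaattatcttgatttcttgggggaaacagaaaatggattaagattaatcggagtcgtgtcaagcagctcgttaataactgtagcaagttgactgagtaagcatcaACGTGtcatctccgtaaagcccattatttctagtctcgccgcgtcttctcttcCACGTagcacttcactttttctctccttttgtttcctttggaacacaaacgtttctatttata
GEA6 (chr2:16780369-16780618, minus strand): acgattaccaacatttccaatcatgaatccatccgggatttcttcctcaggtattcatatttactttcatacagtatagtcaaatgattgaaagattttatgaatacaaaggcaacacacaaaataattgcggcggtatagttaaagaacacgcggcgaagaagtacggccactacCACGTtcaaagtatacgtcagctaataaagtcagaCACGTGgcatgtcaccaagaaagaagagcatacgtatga
The EPR1 window held neither motif and the AT1G14950 window held 1 RY element. The EM1 window held 2 ACGTG cores, and the GEA6 window held 3, of which 2 are the same palindrome CACGTG read on each strand. Over all 16137 tested genes with a window, 6.99% held CATGCA and 23.7% held ACGTG. Among the 1233 called genes with a fitted value at least 2-fold higher in seed coat these shares were 9.25% and 28.4%. Among the 1247 called genes with a fitted value at least 2-fold lower they were 8.82% and 22.2%. The box TAACAAA, bound by gibberellin-regulated MYB factors, was in 15.8% of all windows, 17.4% of those higher and 16.1% of those lower. None of the 4 windows overlaps an annotated exon, and a match in these letters is not a measured binding site.

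NSP2, a nitrile-specifier protein that steers the breakdown of glucosinolates by myrosinase, was the most read member of that system. It measured 12628, 11036 and 10451 CPM in seed coat and 1189, 1013 and 1258 CPM in embryo (log2 3.30, SE 0.24, adjusted p = 4.57e-07). All seed coat libraries lay far above all embryo libraries, but the gap was far narrower than in Col-0, where seed coat averaged 11541 CPM and embryo 28.2 CPM (difference of log2 fold changes -5.38, adjusted p = 4.2e-06). Of 14 genes of the myrosinase system 5 were tested: NSP2 and the glucosinolate transporter GTR2 were higher, the myrosinase TGG1 was lower, and 2 were not called. GTR2 measured 17.3, 15.2 and 17.8 CPM in seed coat and 7.84, 11.5 and 9.09 CPM in embryo, and lost its call with total reads as the scaling (adjusted p = 0.068). TGG1 had 0 reads in seed coat and 20 in embryo, at least 1.48-fold lower. NSP5 was not called (log2 0.49, adjusted p = 0.0716; 0.0013 with the replicate block). The block gave 3 higher and 1 lower for this list. The list took 0.973%, 0.918% and 0.797% of seed coat reads and 0.133%, 0.126% and 0.139% of embryo reads.

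**Figure D2:**
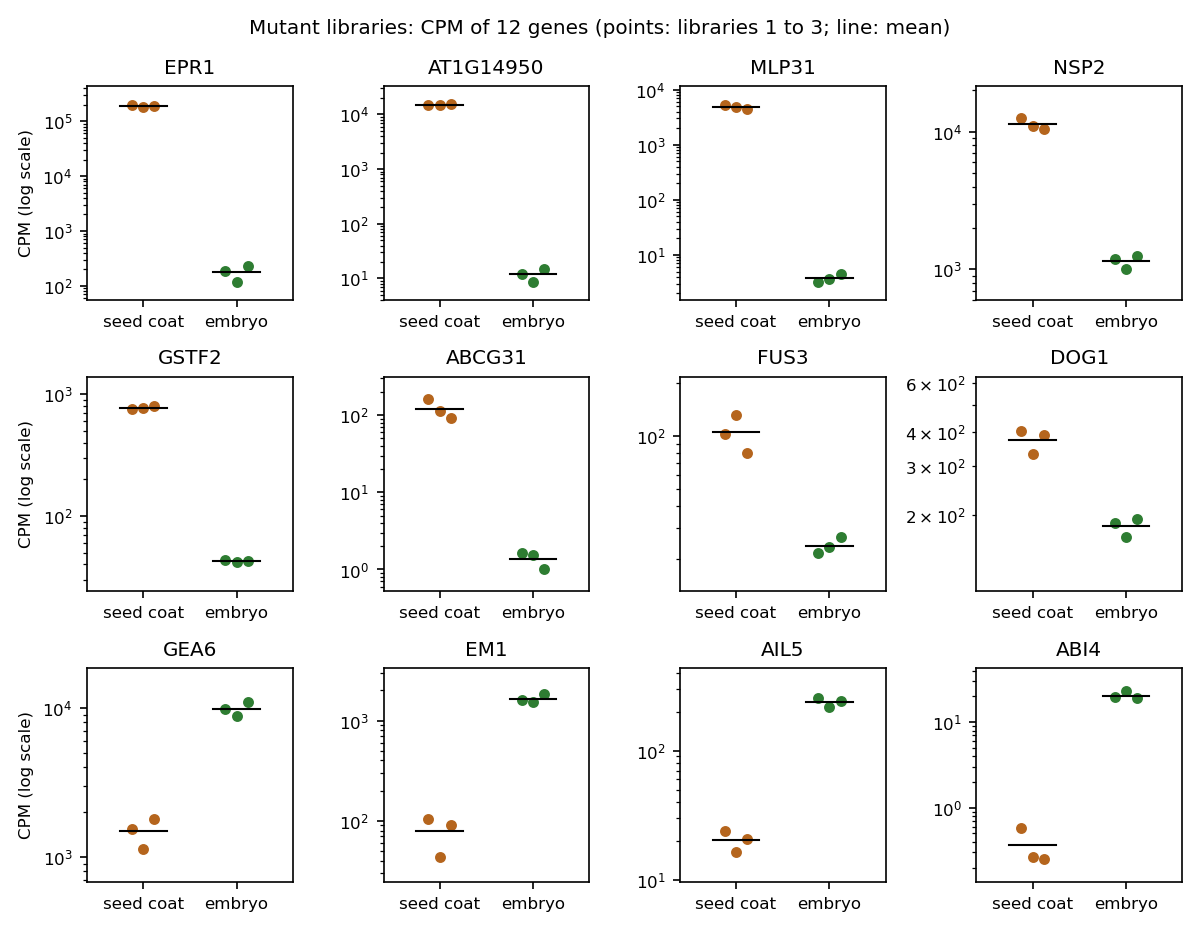
CPM on a log axis of 12 genes in the 3 seed coat libraries (left in each panel) and 3 embryo libraries (right) of the mutant; points are libraries and lines are means. In the first 8 panels every seed coat library lies above every embryo library, and in GEA6, EM1, AIL5 and ABI4 every seed coat library lies below.

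Genes of flavonoid and tannin synthesis, whose products colour the seed coat, gave calls towards seed coat. Of 19 genes 12 were tested, 9 were higher in seed coat, 0 were lower and 3 had no call, and the median was 4.99 (3.77 with genes at 0 reads in embryo set to their lower bound). With total reads as the scaling it held 9 higher and 1 lower. Members with hardly any embryo reads, such as DFR, LDOX and BAN, passed the read filter through seed coat alone and could only be higher, so the count is a description. DFR, dihydroflavonol reductase, measured 16.7, 11 and 12.8 CPM in seed coat and had 0 reads in all embryo libraries, at least 74.2-fold higher against a floor of 3 reads a library. LDOX, the next enzyme, measured 12.7, 10.3 and 15.1 CPM in seed coat and also had 0 reads in embryo, at least 69.9-fold higher. BAN, the anthocyanidin reductase that commits the path to tannins, had 447 reads in seed coat and 1 in embryo, a ratio of 665 (95% interval 119 to 26320). TT4, chalcone synthase at the entry of the path, measured 30.4, 23.9 and 41.4 CPM in seed coat and 0, 0.133 and 0.118 CPM in embryo. TT7, the flavonoid 3′-hydroxylase, was less bound to the seed coat, at 22.7, 26.0 and 30.3 CPM, against 2.74, 3.06 and 3.48 CPM in embryo (log2 3.09, adjusted p = 2.77e-07). F3H, flavanone 3-hydroxylase, was the one member whose tissue difference was called wider than in Col-0: 7.70 CPM in seed coat and 0.351 CPM in embryo of the mutant, against 11.5 and 5.0 CPM in Col-0 (difference 3.27, adjusted p = 0.0033).

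Other genes with the largest fold changes towards seed coat were of several kinds. G-TMT, gamma-tocopherol methyltransferase of vitamin E synthesis, measured 84.6, 68.3 and 98.9 CPM in seed coat and 0, 0.0664 and 0.177 CPM in embryo. Its seed coat level in Col-0 was 4.98 CPM, and the difference between genotypes was not called (adjusted p = 0.055; 0.021 with the replicate block). TGA9, a bZIP transcription factor, measured 58.4, 70.6 and 70.8 CPM in seed coat and 0.112, 0 and 0.118 CPM in embryo. MYB31, a MYB transcription factor, measured 47.5, 96.1 and 48.4 CPM in seed coat and 0, 0.133 and 0.118 CPM in embryo, with seed coat library 2 at the top. CYP705A4, a cytochrome P450, had 1 read in embryo against 41.7, 34.2 and 52.9 CPM in seed coat, a ratio of 2154 (95% interval 386 to 85132). LTP6, a lipid transfer protein, and CHIL, a chalcone isomerase-like protein, had 0 reads in embryo and were at least 49.5-fold and 43.4-fold higher in seed coat.

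In all, 73 genes had at least 10 reads in each seed coat library and 0 in all 3 embryo libraries, and 20 of those met the same rule in Col-0. AT3G25260, a gene of the nitrate and peptide transporter family, led them with 529, 486 and 668 reads in seed coat (at least 276-fold higher), followed by AT1G19230, a respiratory burst oxidase gene, with 561, 543 and 537 reads (at least 271-fold). The reverse was rarer: 8 genes had at least 10 reads in each embryo library and 0 in seed coat, and 1 of them met the rule in Col-0. They included the vacuolar calcium exchanger CAX1 (10, 28 and 21 reads, at least 4.53-fold higher in embryo), the B3 factor NGA3 (22, 21 and 15 reads, at least 4.35-fold) and the receptor kinase ERL1 (14, 15 and 15 reads, at least 3.30-fold). These were named after their values were seen. A count of 0 at this depth allows up to 0.181 CPM in embryo and 0.269 CPM in seed coat.

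Towards the embryo, the widest gaps, counting only non-overlapping genes that carry a symbol and reach 5 CPM in either tissue, belonged to genes of several functions. PIP3, a plasma membrane aquaporin, measured 0.0964, 0.0892 and 0.336 CPM in seed coat and 15.6, 20.5 and 17.2 CPM in embryo (log2 -6.57, SE 0.53, adjusted p = 1.17e-06). YAB3 (AT4G00180), a YABBY factor of the lower leaf side, measured 0.0964, 0.0892 and 0.755 CPM in seed coat and 24.5, 22.3 and 26.4 CPM in embryo (log2 -6.19, SE 0.37, adjusted p = 6.70e-08). ABI4, an AP2 transcription factor of abscisic acid and sugar responses, measured 0.578, 0.268 and 0.252 CPM in seed coat and 19.7, 22.9 and 19.0 CPM in embryo (log2 -5.80, adjusted p = 8.21e-09). AN3, a coactivator of leaf cell proliferation, measured 1.06, 0.535 and 0.755 CPM in seed coat and 39.2, 28.4 and 26.2 CPM in embryo (log2 -5.32, adjusted p = 2.69e-07). The chloroplast-related GATA factor GNC (log2 -5.36), the cell wall linker protein CWLP (-5.55) and the trypsin inhibitor TI2 (-5.17) were also lower in seed coat. A few genes had so few reads in seed coat that only a ratio of embryo over seed coat is given: 82.9 for the ABC transporter ABCC15 (95% interval 28.2 to 404), 83.7 for the ion channel CNGC4 (22.9 to 695) and 58.5 for SOB5 (19.8 to 285).

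Leaf polarity genes named from the embryo markers, and part of the photosynthesis list, were lower in seed coat. PHB, a homeodomain factor of the upper leaf side, measured 0.964, 0.713 and 1.59 CPM in seed coat and 14.5, 13.3 and 11.8 CPM in embryo (log2 -3.57), a wider gap than the -1.41 of Col-0 (difference -2.16, adjusted p = 0.0011). KAN (log2 -4.23), its counterpart on the lower side, and PHV (log2 -1.15) were called as well. Of 49 photosynthesis genes 29 were tested, 13 were lower in seed coat, 0 were higher and 16 had no call, and the median was -0.60. Without embryo library 1 the count was 7 lower, without seed coat library 1 it was 8 lower, and with total reads as the scaling it was 20 lower. Calls in the main fit covered 44.8% of the tested photosynthesis genes, beside 34.9% of all genes tested. RBCS1A, a small subunit of Rubisco, measured 4.43, 4.01 and 4.20 CPM in seed coat and 13.8, 11.4 and 10.2 CPM in embryo (log2 -1.49, adjusted p = 7.66e-06), and the gap was narrower than in Col-0 (difference 1.26, adjusted p = 0.0048). PSBO1 of photosystem II (log2 -1.55), RBCS3B (-2.28) and the plastid aldolase FBA2 (-3.50) were also lower. Of 18 aquaporins 12 were tested: 6, of the plasma membrane type, were lower, among them PIP1A (log2 -4.53), PIP1;4 (-1.75) and PIP1B (-0.75), 4 were not called and the 2 storage vacuole channels TIP3;1 and BETA-TIP were higher (1 and 6 with total reads as the scaling). TIP3;1 averaged 5724 CPM in seed coat and 3644 CPM in embryo (log2 0.65, adjusted p = 0.00916; 0.12 with total reads as the scaling), and BETA-TIP averaged 5475 and 3176 CPM (log2 0.79, adjusted p = 0.00232).

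**Figure D3:**
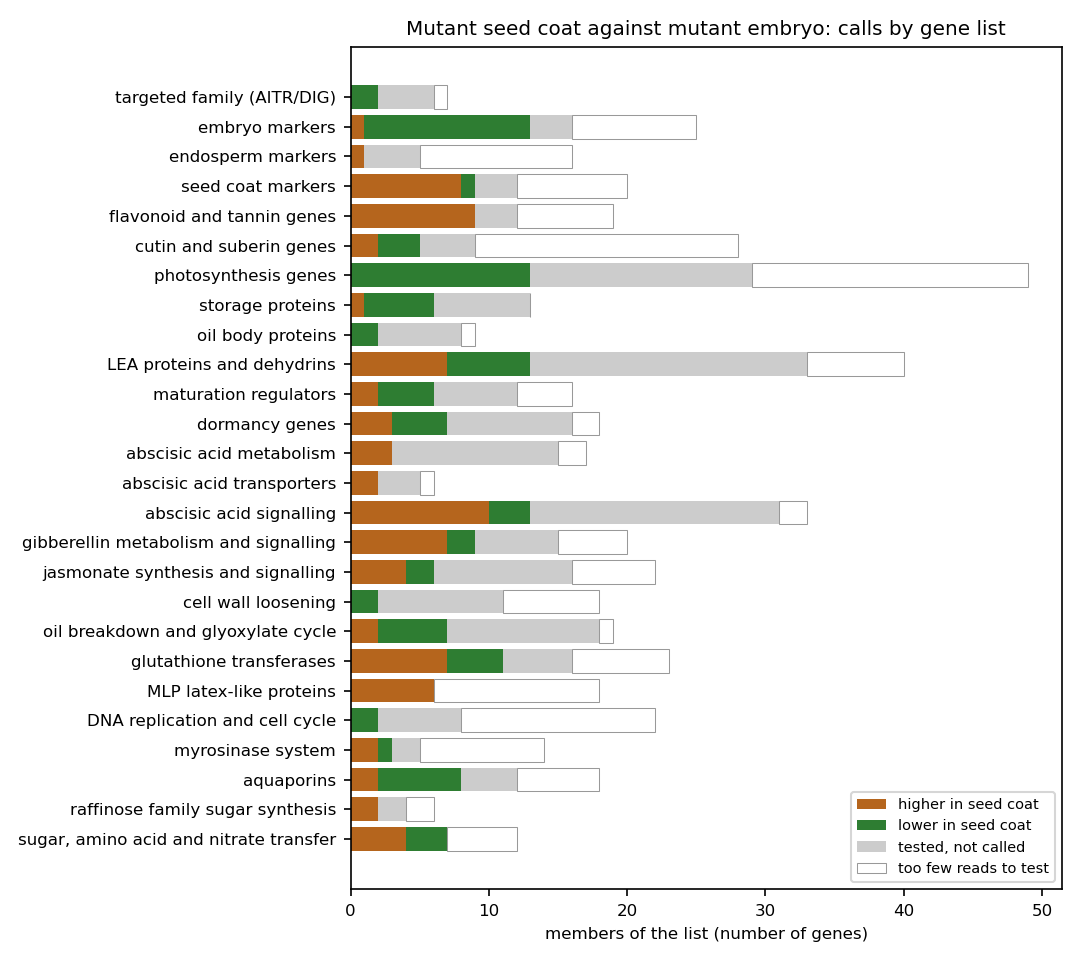
Members of each gene list (horizontal axis, number of genes) called higher in mutant seed coat, called lower, tested without a call, or with too few reads to test. MLP and flavonoid genes are all or mostly higher among those tested, photosynthesis genes and embryo markers mostly lower or not called, and 20 of 33 tested LEA and dehydrin genes had no call. Over all genes tested, 34.9% were called.

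Seed storage protein genes gave more calls lower than higher in seed coat. All 13 were tested: 5 were lower, 1 was higher and 7 had no call, and the median was -0.26. Calls covered 46.2% of the list, beside 34.9% of all genes tested. Without seed coat library 2 there were 3 lower, and with the replicate block there were 3 higher and 7 lower. CRU2, a cruciferin (12S globulin), had the widest gap, with 196, 132 and 171 CPM in seed coat and 1321, 1274 and 1320 CPM in embryo (log2 -2.97, SE 0.29, adjusted p = 6.10e-06). CRU3 measured 2098, 1750 and 2060 CPM in seed coat and 5728, 4806 and 5188 CPM in embryo (log2 -1.41, adjusted p = 1.92e-04), and the related AT1G03890 had a log2 fold change of -1.66. CRA1, the most read cruciferin, measured 8499, 6769 and 8861 CPM in seed coat and 14514, 11418 and 12237 CPM in embryo (log2 -0.66, SE 0.18, adjusted p = 0.0113). The CRA1 libraries did not overlap between tissues, but its call was lost without embryo library 1 (adjusted p = 0.0697) and without seed coat library 2 (0.0606).

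The albumin genes went both ways. SESA2, a 2S albumin, measured 1757, 1744 and 1925 CPM in seed coat and 635, 608 and 533 CPM in embryo (log2 1.61, SE 0.23, adjusted p = 1.63e-04), as in Col-0 (1.47). SESA4 measured 616, 477 and 487 CPM in seed coat and 914, 927 and 851 CPM in embryo (log2 -0.77, adjusted p = 0.0169), a call lost without seed coat library 2 (0.0645) or 3 (0.0664). PAP85, a vicilin-like 7S globulin, SESA5, SESA3 and SESA1 were called only with the replicate block. Their log2 fold changes were -0.26, -0.36, 0.43 and 0.39, with adjusted p = 0.268, 0.107, 0.297 and 0.256, and 0.029, 0.0094, 0.0013 and 0.032 with the block. The vicilin-like AT2G18540, AT4G36700 and AT2G28490 had log2 fold changes of 0.00, 0.06 and 0.17 and no call.

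The gap for the main storage proteins was narrower in the mutant than in Col-0. CRA1 averaged 8043 ± 1118 CPM in seed coat and 12722 ± 1604 CPM in embryo of the mutant (SD, n = 3 each), against 3549 and 13808 CPM in Col-0 (difference 1.30, adjusted p = 0.0098). PAP85 measured 14299, 12206 and 15996 CPM in mutant seed coat and 18261, 14373 and 18117 CPM in mutant embryo, against means of 6946 and 25507 CPM in Col-0 (difference 1.62, adjusted p = 0.0026). SESA5 measured 11528, 12170 and 13320 CPM in mutant seed coat and 16080, 15533 and 15958 CPM in mutant embryo, against 7981 and 28182 CPM in Col-0 (difference 1.46, adjusted p = 0.0036). For CRU2 and CRU3 the differences of 1.2 and 0.97 were not called (adjusted p = 0.086 and 0.068; 3.0e-04 and 8.7e-05 with the replicate block). As a share of gene reads, storage proteins took 4.15%, 3.95% and 4.31% in mutant seed coat and 7.13%, 6.62% and 6.71% in mutant embryo, against means of 2.32% and 10.8% in Col-0. An exact permutation test of the mutant shares gave p = 0.1, the smallest that 3 against 3 libraries allow.

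Oil body proteins, which coat the stored oil, gave few calls. Of 9 genes 8 were tested, 2 were lower, 0 were higher and 6 had no call, and the median was -0.13. Calls covered 25% of the tested members, beside 34.9% of all genes tested. With the replicate block 1 was higher and 4 were lower, and without library 2 of both mutant tissues none was called. With total reads as the scaling 7 of the 8 were lower. OLEO1, the most read oleosin, measured 21184, 18904 and 24101 CPM in seed coat and 20959, 18332 and 20545 CPM in embryo, and its libraries overlapped (log2 0.10, SE 0.16, adjusted p = 0.667). The calls of OLEO3 (log2 -0.54, adjusted p = 0.0342) and of the oleosin gene AT3G01570 (-0.46, 0.0168) were both fragile. OLEO3 lost its call without any 1 of the 6 mutant libraries (adjusted p = 0.0552 to 0.104), and AT3G01570 without embryo library 1 (0.0681), seed coat library 1 (0.0766), seed coat library 2 (0.0974) or embryo library 3 (0.0638). OLEO4 (-0.33), HSD5 (0.28) and ATPXG2 (-0.26) were called only with the block (adjusted p = 0.286, 0.174 and 0.207; 0.0023, 0.0073 and 0.0074 with it), and OLEO2 had a log2 fold change of -0.01. ATS1, a caleosin, averaged 1489 CPM in seed coat and 1438 CPM in embryo of the mutant, against 242 and 440 CPM in Col-0 (difference 0.91, adjusted p = 0.040). That call was lost (0.053 to 0.0904) without any 1 library other than mutant seed coat 2, Col-0 embryo 1 and Col-0 seed coat 3. Together these genes took 2.81%, 2.65% and 3.13% of seed coat reads and 3.90%, 3.74% and 3.88% of embryo reads in the mutant, and 1.37% and 2.11% in Col-0.

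**Figure D4:**
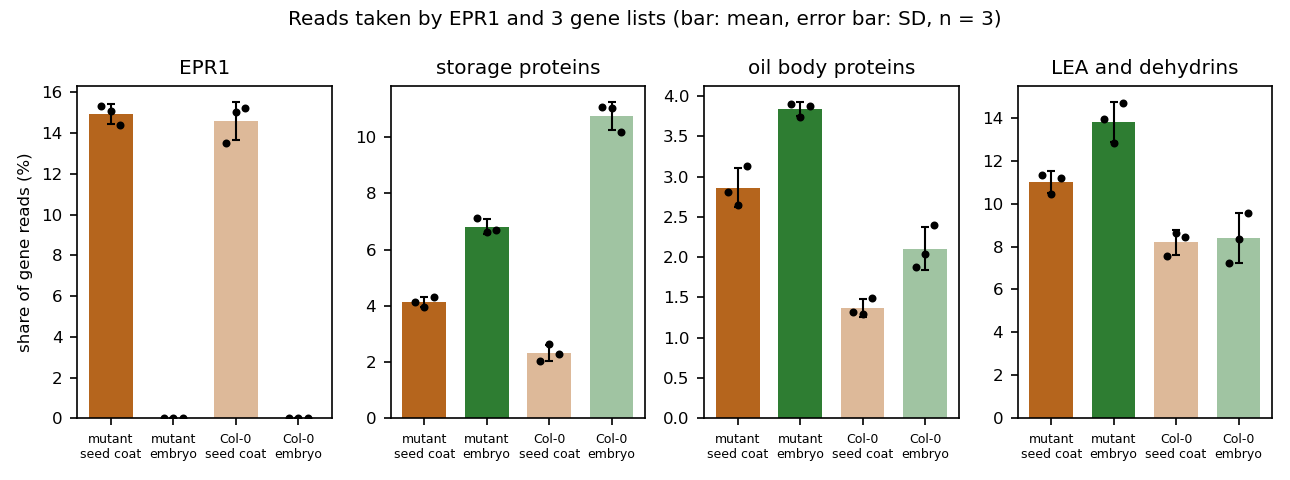
Share of gene reads (%) taken by EPR1, storage proteins, oil body proteins, and LEA proteins with dehydrins in mutant seed coat, mutant embryo, Col-0 seed coat and Col-0 embryo; bars are means, error bars SD and points the 3 libraries. EPR1 took 14.9% and 0.0183% in seed coat and embryo of the mutant, and the storage protein share was 4.14% in seed coat and 6.82% in embryo of the mutant, against 2.32% and 10.8% in Col-0.

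Late embryogenesis abundant (LEA) proteins and dehydrins, which protect dry cells, were not of 1 kind. The share of tested members called was 39.4%, near the 34.9% of all genes tested. Of 40 genes 33 were tested, 7 were higher, 6 were lower and 20 had no call, and the median was -0.04; with total reads as the scaling there were 3 higher and 18 lower, and with the replicate block 11 higher and 12 lower. EM1 (AT3G51810) measured 104, 44.0 and 90.4 CPM in seed coat and 1599, 1528 and 1850 CPM in embryo (log2 -4.38, SE 0.40, adjusted p = 3.73e-06), with seed coat library 2 the lowest. GEA6 (AT2G40170), also known as EM6, measured 1531, 1134 and 1788 CPM in seed coat and 9798, 8888 and 11042 CPM in embryo (log2 -2.74, SE 0.18, adjusted p = 1.51e-07). In the other direction ERD10, a dehydrin, measured 819, 901 and 730 CPM in seed coat and 324, 386 and 368 CPM in embryo (log2 1.18, adjusted p = 7.05e-05). ERD10 averaged 1.14 CPM in Col-0 seed coat and had 0 reads in Col-0 embryo, so its 2 genotypes are compared by level rather than by fold.

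The most read of this group was RAB18, a dehydrin induced by abscisic acid. It measured 50686, 44251 and 52865 CPM in seed coat and 34454, 30125 and 37671 CPM in embryo, with no overlap (log2 0.53, SE 0.23, adjusted p = 0.0912; 5.2e-04 with the replicate block). It made up 3.81% of seed coat reads and 3.51% of embryo reads. AT1G54410, a small dehydrin, measured 3.47, 4.82 and 3.44 CPM in seed coat and 0.112, 0.465 and 0.236 CPM in embryo of the mutant, against 3.79 and 3.74 CPM in Col-0 (difference 3.82, adjusted p = 4.1e-04). Of the list, 7 genes had a tissue difference that was called unlike that of Col-0, 1 more positive and 6 more negative. LEA7, a LEA protein among the more negative ones, averaged 10865 CPM in seed coat and 4945 CPM in embryo of the mutant (log2 1.14, adjusted p = 1.13e-04), against 5145 and 440 CPM in Col-0 (difference -2.41, adjusted p = 7.0e-05). LEA14 averaged 1240 CPM in seed coat and 881 CPM in embryo (log2 0.49, adjusted p = 0.00121; 0.384 with total reads as the scaling), against 840 and 326 CPM in Col-0 (difference -0.88, adjusted p = 0.0024). The list took 11.4%, 10.4% and 11.2% of seed coat reads and 13.9%, 12.8% and 14.7% of embryo reads in the mutant; in Col-0 it took 8.20% and 8.39%. The log2 ratio of the mutant means was -0.33 by share and turned to 0.0852 for summed TMM-scaled CPM, the scale of the levels given here. Among the 5 most read genes of each tissue were EPR1, RAB18, OLEO1, AT5G35660 and AT1G54870 in seed coat, and RAB18, OLEO1, PAP85, SESA5 and AT1G54870 in embryo. AT5G35660 and AT1G54870 were called only with the block (log2 0.61 and 0.33, adjusted p = 0.073 and 0.136; 1.3e-04 and 0.0059 with it).

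The regulators of seed maturation split between the tissues. FUS3 (AT3G26790), a B3 factor that drives storage and dormancy genes, measured 103, 131 and 80.6 CPM in seed coat and 21.6, 23.5 and 26.6 CPM in embryo (log2 2.13, SE 0.21, adjusted p = 7.07e-06). Its seed coat libraries all stood above its embryo libraries, with a smaller fold than in Col-0, where it averaged 35.5 CPM in seed coat and 2.58 CPM in embryo (difference -1.64, adjusted p = 0.0092). On the embryo side were the AP2 factors AIL5 and BBM, which promote embryo identity. AIL5 measured 23.8, 16.5 and 20.6 CPM in seed coat and 252, 217 and 242 CPM in embryo (log2 -3.54, adjusted p = 6.26e-09). BBM measured 2.89, 3.30 and 3.52 CPM in seed coat and 28.9, 33.9 and 31.4 CPM in embryo (log2 -3.27, adjusted p = 2.45e-07), a narrower gap than in Col-0 at lower level, where it averaged 0.196 and 8.31 CPM (difference 2.15, adjusted p = 0.025; 0.0515 to 0.0584 without mutant embryo library 1 or 3, mutant seed coat library 3 or Col-0 seed coat library 3). EEL, a bZIP repressor of EM1, measured 58.9, 51.6 and 55.4 CPM in seed coat and 125, 105 and 110 CPM in embryo (log2 -1.04), against 13.2 and 86.3 CPM in Col-0 (difference 1.68, adjusted p = 2.9e-04).

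Other members of that list gave weaker or no calls. Of its 16 genes 12 were tested, 2 were higher, 4 were lower and 6 had no call, and the median was -0.44. Calls covered 50% of the tested members, beside 34.9% of all genes tested. With total reads as the scaling 1 was higher and 7 were lower. WRI1, the AP2 factor of oil synthesis, measured 1.16, 0.803 and 1.59 CPM in seed coat and 2.86, 2.66 and 2.18 CPM in embryo (log2 -1.10, adjusted p = 0.0131), and lost its call without embryo library 1 (0.0525) or seed coat library 2 (0.064). BZIP25 was higher (log2 0.44, adjusted p = 0.0206), a call lost without embryo library 1 (0.0603), seed coat library 2 (0.0514) or embryo library 3 (0.0593) and with total reads as the scaling (0.869). ABI3, the B3 factor at the head of the maturation programme, measured 327, 279 and 290 CPM in seed coat and 415, 323 and 367 CPM in embryo, and its libraries overlapped (log2 -0.30, adjusted p = 0.066; 0.0039 with the block). NF-YB6, AGL15, BZO2H1 and BZIP53 had log2 fold changes of -0.69, -0.58, 0.19 and 0.19 and no call.

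Among dormancy genes, DOG1 (AT5G45830), whose product sets the depth of dormancy, was higher in seed coat. It measured 402, 332 and 389 CPM in seed coat and 187, 166 and 193 CPM in embryo (log2 1.04, SE 0.24, adjusted p = 0.0045). In Col-0 it was at 25.9 and 21.4 CPM, and the difference between the 2 tissue contrasts was not called (0.77, adjusted p = 0.22; 2.3e-04 with the replicate block). PIL5, also known as PIF1, a light-labile repressor of germination, measured 54.0, 64.1 and 65.6 CPM in seed coat and 30.6, 27.0 and 32.1 CPM in embryo (log2 1.03, adjusted p = 7.35e-04). RVE2, a MYB-like factor, measured 37.4, 37.9 and 40.6 CPM in seed coat and 22.4, 23.2 and 25.3 CPM in embryo (log2 0.71, adjusted p = 0.00915; 0.127 with total reads as the scaling).

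The DOG1-like genes did not follow DOG1. AT4G18660 measured 5.4, 8.20 and 4.45 CPM in seed coat and 17.3, 18.8 and 14.3 CPM in embryo (log2 -1.48, adjusted p = 2.53e-04), whereas Col-0 had 22.6 and 22.3 CPM (difference -1.51, adjusted p = 0.012). AT4G18690 had 1 read in seed coat and 63 in embryo, a ratio of embryo over seed coat of 42.4 (95% interval 7.33 to 1699). AT4G18650 and AT4G18680 were not called (log2 -0.13 and -0.28; the second at 0.0099 with the block). SPT, a bHLH factor of cold-regulated germination, was lower (log2 -1.48, adjusted p = 0.00328), and DAG1, a Dof factor, had 1 read in seed coat and 32 in embryo (ratio 21.5, interval 3.59 to 876). SOM, HUB1, HUB2, TFIIS, RVE1, E12A11 and AT4G11040 were not called, with log2 fold changes of 0.40, -0.25, -0.10, -0.10, 0.20, -0.05 and 0.10; SOM and HUB1 were called with the block (0.0053 and 0.021). E12A11, the seed gene also known as MOTHER OF FT AND TFL1, had no call in the mutant and had a log2 fold change of 0.66 in Col-0 (difference -0.71, adjusted p = 0.039). That difference was not called with total reads as the scaling (0.119) or with reads of both strands (0.0612), nor (0.053 to 0.147) without any 1 library other than mutant embryo 3, Col-0 embryo 1 and Col-0 seed coat 3. In all, 16 of 18 dormancy genes were tested, with 3 higher, 4 lower and 9 without a call, and the median was -0.10. The share called was 43.8%, beside 34.9% of all genes tested. There were 2 higher and 11 lower with total reads as the scaling, and 4 and 6 with the block.

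Few genes of abscisic acid synthesis and breakdown were called. Of 17 genes 15 were tested, 3 were higher, 0 were lower and 12 were not called, a share of higher genes near the 16.9% of all genes tested. There were 3 higher and 4 lower with total reads as the scaling, and 4 higher and 4 lower with the replicate block. NCED2, a 9-cis-epoxycarotenoid dioxygenase at the limiting step of synthesis, measured 3.08, 2.76 and 5.87 CPM in seed coat and 0.336, 0.332 and 0.590 CPM in embryo (log2 3.2, adjusted p = 3.62e-04). NCED9, of the same family and known from seeds, measured 11.9, 8.11 and 16.0 CPM in seed coat and 4.31, 4.72 and 6.2 CPM in embryo (log2 1.24, adjusted p = 0.00729). UGT71B6, a glucosyltransferase of abscisic acid, measured 33.8, 31.5 and 25.5 CPM in seed coat and 4.76, 4.38 and 4.37 CPM in embryo (log2 2.74, adjusted p = 1.23e-08), against 25.3 and 0.332 CPM in Col-0 (difference -3.47, adjusted p = 1.0e-05).

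Synthesis by NCED6 and breakdown by CYP707A2 had tissue differences that differed from those of Col-0. NCED6, known from the endosperm of developing seeds, measured 16.4, 10.5 and 11.1 CPM in seed coat and 26.4, 17.2 and 18.9 CPM in embryo of the mutant, against 2.12 and 0.708 CPM in Col-0 (difference -2.26, adjusted p = 0.019). CYP707A2, the abscisic acid 8′-hydroxylase of imbibed seeds, measured 64.8, 73.7 and 76.1 CPM in seed coat and 114, 90.9 and 107 CPM in embryo of the mutant, against 101 and 45.1 CPM in Col-0 (difference -1.70, adjusted p = 0.024). Within the mutant neither was called (log2 -0.72 and -0.54, adjusted p = 0.0505 and 0.150; 9.1e-05 and 5.3e-04 with the replicate block), although all seed coat libraries lay below all embryo libraries. The difference from Col-0 was not called for NCED6 without mutant embryo library 1 (0.0526), mutant seed coat library 3 (0.0572) or Col-0 seed coat library 3 (0.0503). For CYP707A2 it was not called (0.0557 to 0.0777) without mutant seed coat library 1, 2 or 3, mutant embryo library 1 or 3, or Col-0 seed coat library 1 or 3. ABA1, CYP707A3 and NCED3 were called only with the block (log2 0.23, -0.40 and -1.19; 0.020, 0.015 and 0.039 with it), and ABA2, ABA3, ABA4, AAO3, NCED5, CYP707A1 and UGT71C5 in neither fit.

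Of 3 exporters of abscisic acid, 2 were higher in seed coat. ABCG31 (AT2G29940) measured 162, 113 and 92.0 CPM in seed coat and 1.62, 1.53 and 1.00 CPM in embryo (log2 6.46, SE 0.27, adjusted p = 3.04e-09). ABCG25 (AT1G71960) measured 77.9, 72.6 and 77.4 CPM in seed coat and 8.35, 8.70 and 8.21 CPM in embryo (log2 3.17, SE 0.11, adjusted p = 5.34e-10). Both are known to release abscisic acid from endosperm towards the embryo. The tissue gap was narrower than in Col-0 for both: ABCG25 averaged 28.3 and 0.854 CPM there (difference -1.86, adjusted p = 1.1e-04), and ABCG31 had 126 CPM in seed coat and 1 read in embryo. ABCG30, an importer of the embryo, measured 1.73, 3.12 and 2.35 CPM in seed coat and 1.46, 1.59 and 1.65 CPM in embryo of the mutant (log2 0.62, adjusted p = 0.127), against 0.806 and 2.25 CPM in Col-0 (difference 2.11, adjusted p = 0.015). The importer NRT1:2 was not called (log2 0.34), nor was the exporter AT5G52050 (log2 -1.17, adjusted p = 0.124; 0.0035 with the block). Of 6 transporters 5 were tested, and 40% of these were called, beside 34.9% of all genes tested.

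In the abscisic acid response path, 31 of 33 genes were tested, with 10 higher, 3 lower and 18 without a call, and the median was 0.19; with total reads as the scaling 3 were higher and 14 lower. Calls covered 41.9% of the tested members, beside 34.9% of all genes tested. The replicate block gave 12 higher and 6 lower, and without library 2 of both mutant tissues 6 were higher and 2 lower. OST1 (AT4G33950), a protein kinase also called SnRK2.6, measured 74.4, 74.9 and 84.6 CPM in seed coat and 22.9, 29.6 and 27.3 CPM in embryo (log2 1.55, adjusted p = 2.43e-04). In Col-0 its means were 11.3 CPM in seed coat and 21.9 CPM in embryo, in the other direction (difference 2.51, adjusted p = 0.0013). The receptor PYL5 measured 229, 248 and 243 CPM in seed coat and 79.4, 141 and 88.5 CPM in embryo (log2 1.22, adjusted p = 0.00159), and PYL11 measured 1.83, 1.61 and 2.77 CPM in seed coat and 0.168, 0.0664 and 0.118 CPM in embryo (log2 4.02, adjusted p = 1.99e-04). ABI4, described above, was the member furthest to the embryo side. Of this list 6 genes had a tissue difference called unlike that of Col-0. It was more positive for OST1 and the receptor PYL2 (difference 1.42, adjusted p = 0.0035), and more negative for the bZIP factor ABF2 (-1.05, 0.019) and the receptors PYL3 (-2.66, 0.029), PYL12 (-1.59, 0.034) and PYL13 (-1.27, 0.028). The calls of ABF2, PYL3, PYL12 and PYL13 were lost without any 1 of 4, 7, 9 and 7 libraries (0.053 to 0.116). ABF2 measured 29.3, 25.1 and 22.8 CPM in seed coat and 29.0, 23.6 and 27.0 CPM in embryo of the mutant, against 5.09 and 2.56 CPM in Col-0.

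**Figure D5:**
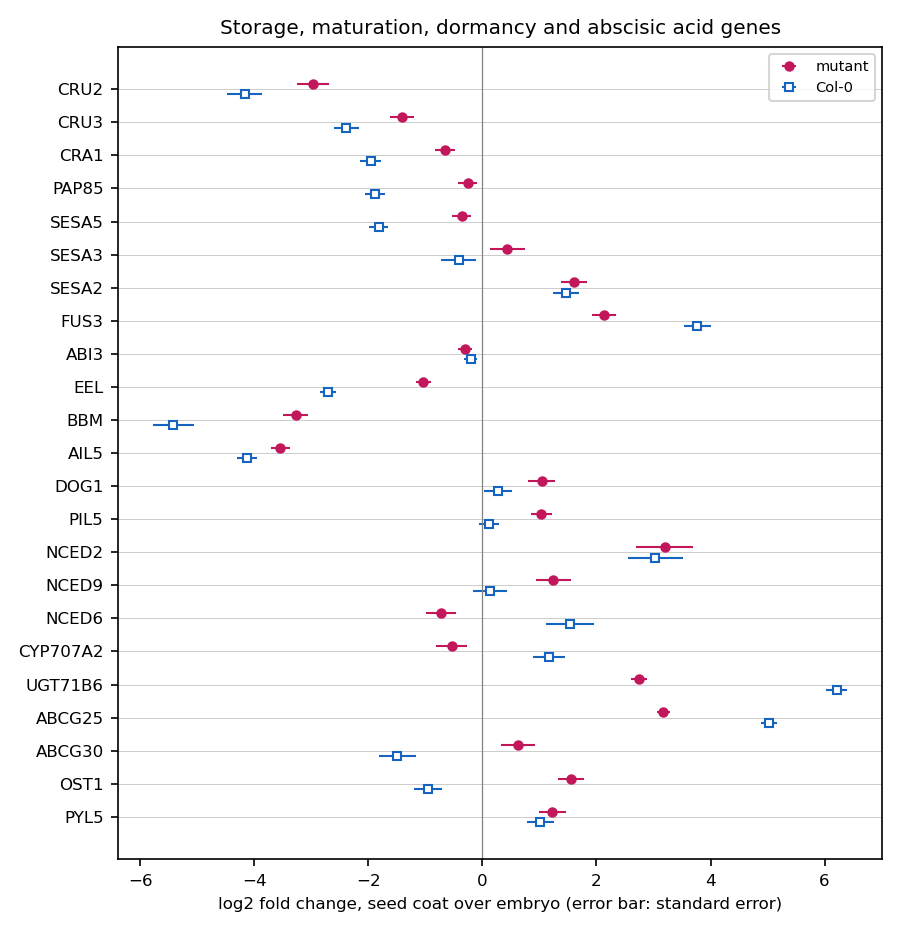
Log2 fold change of seed coat over embryo with its standard error for 23 genes of storage, maturation, dormancy and abscisic acid, in the mutant (filled circles) and in Col-0 (open squares). The mutant value lies nearer to 0 than that of Col-0 for CRA1, PAP85, SESA5, FUS3, EEL, BBM, UGT71B6 and ABCG25, and on the other side of 0 for OST1, NCED6, CYP707A2 and ABCG30.

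Gibberellin genes gave calls in both directions: 15 of 20 were tested, with 7 higher, 2 lower and 6 without a call, and the median was 0.60; with total reads as the scaling there were 4 higher and 3 lower. Among them were MYB factors of the class that acts downstream of the hormone in the cereal aleurone. MYB101 measured 73.6, 78.3 and 73.9 CPM in seed coat and 0.0560, 0.399 and 0.177 CPM in embryo (log2 8.49, adjusted p = 5.88e-10). MYB33 measured 60.3, 60.4 and 60.6 CPM in seed coat and 12.5, 10.7 and 8.56 CPM in embryo (log2 2.51), and MYB65 27.0, 27.6 and 26.6 CPM, against 3.02, 3.65 and 3.60 CPM (log2 2.98). RGL3, a DELLA repressor, was lower, at 20.05, 12.5 and 22.5 CPM in seed coat and 57.8, 36.3 and 54.8 CPM in embryo (log2 -1.44, adjusted p = 4.32e-04). No member of the list differed from Col-0 in its tissue difference at the threshold; with the replicate block GA2OX6, a gibberellin-inactivating oxidase, did (-1.22, adjusted p = 0.24; 0.0023 with the block). Of 22 jasmonate genes 16 were tested, with 4 higher, 2 lower and 10 without a call, and the median was 0.45. The share called was 37.5%, near the 34.9% of all genes tested. Without embryo library 2 there were 7 higher, and without embryo library 3 there were 2. The block gave 7 higher and 2 lower, and total reads as the scaling gave 1 higher and 2 lower. LOX5, a lipoxygenase, had 50 reads in seed coat and 0 in embryo (at least 8.29-fold), OPR3 of jasmonate synthesis and the repressor JAZ10 were lower (log2 -2.66 and -2.27), and LOX1 was higher (log2 0.51, adjusted p = 1.96e-04; 0.338 with total reads as the scaling).

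Glutathione transferases, which conjugate toxic or reactive compounds, gave calls in both directions. Of 23 genes 16 were tested, 7 were higher, 4 were lower and 5 had no call, and the median was 0.55; with total reads as the scaling 6 were higher and 6 lower, and without library 2 of both mutant tissues 6 were higher and 2 lower. GSTF2 averaged 776 ± 20.6 CPM in seed coat and 42.7 ± 0.991 CPM in embryo (SD, n = 3 each; log2 4.18), and GSTF3 measured 529, 490 and 605 CPM in seed coat and 24.8, 20.1 and 22.4 CPM in embryo (log2 4.59). GSTF2 and GSTF3 are near-identical, so reads that fit both may be missing from their counts. GSTU9 was also higher (log2 2.39), and GSTU19 was lower, at 58.9, 58.0 and 50.3 CPM in seed coat and 403, 507 and 349 CPM in embryo (log2 -2.91, adjusted p = 6.6e-09). Each of these 4 had a tissue difference wider than in Col-0 (differences 1.17, 2.27, 0.87 and -1.21, adjusted p = 0.011, 1.8e-04, 0.017 and 0.0023). The difference was also called for GSTU4, GSTU5 and GSTU7 (-0.71, -0.95 and -0.97, adjusted p = 0.0021, 0.0068 and 0.0065), whose log2 fold changes in the mutant were 0.04, -0.10 and -0.42. When reads of both strands were counted, the differences of GSTF2 and GSTU7 were no longer called (0.058 and 0.218).

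Transfer of sugar, amino acids and nitrate gave calls in both directions: 7 of 12 genes were tested, 4 were higher and 3 were lower. STP1, a hexose importer, measured 825, 804 and 964 CPM in seed coat and 55.6, 89.0 and 89.7 CPM in embryo (log2 3.47, adjusted p = 5.5e-08). MSS1, the hexose importer also called STP13, measured 81.1, 84.7 and 87.4 CPM in seed coat and 0.168, 0.332 and 0.177 CPM in embryo (log2 8.52). AAP1, an amino acid permease of the embryo, averaged 13.1 CPM in seed coat and 46.1 CPM in embryo (log2 -1.82), a wider gap than in Col-0 (difference -0.81, adjusted p = 0.012; 0.053 without mutant embryo library 1). NRT2.7, the nitrate transporter of seed vacuoles, measured 312, 248 and 321 CPM in seed coat and 624, 464 and 497 CPM in embryo (log2 -0.85, adjusted p = 3.74e-04).

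Oil breakdown genes gave calls in both directions. The share of tested members called was 38.9%, near the 34.9% of all genes tested. Of 19 genes 18 were tested, 2 were higher, 5 were lower and 11 had no call, and the median was -0.07; without embryo library 1 or seed coat library 3 there were 2 lower, and without seed coat library 1 there were 3. The block gave 3 higher and 7 lower, and total reads as the scaling gave 1 higher and 15 lower. MLS, malate synthase of the glyoxylate cycle, measured 1484, 1222 and 1527 CPM in seed coat and 2720, 2122 and 2515 CPM in embryo (log2 -0.80, adjusted p = 5.75e-04). MFP2, of fatty acid beta-oxidation, averaged 140 CPM in seed coat and 275 CPM in embryo (log2 -0.97), a wider gap than in Col-0 (difference -0.68, adjusted p = 0.0075). The oil lipase gene SDP1-LIKE was higher (log2 0.85, adjusted p = 2.28e-04).

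In the remaining lists 4 to 11 members were tested. Calls covered 55.6% of the tested cutin and suberin genes and 50% of the raffinose genes, beside 34.9% of all genes tested. For cell wall loosening the share was 18.2%, and for DNA replication and the cell cycle it was 25%. Of 28 cutin and suberin genes 9 were tested, 2 were higher and 3 were lower (4 and 3 with the block). ABCG2, a transporter of suberin precursors, had a ratio of 26.8 (95% interval 6.89 to 230), and the fatty acyl reductase FAR5 had a log2 fold change of 3.95 that rested on seed coat library 2 (0.386, 2.76 and 0.923 CPM in seed coat; adjusted p = 0.011, and 0.063 without that library). PEL3 (log2 -0.51, adjusted p = 0.00597) was lower. Of 6 raffinose genes 4 were tested and 2 were called higher, GolS2 (log2 0.70, adjusted p = 0.0265) and STS (0.37, 0.0417). With total reads as the scaling neither was called (adjusted p = 0.213 and 0.747), and the block called 3 of the 4 higher. GolS2 lost its call without embryo library 1 (0.0536), seed coat library 1 (0.0633), embryo library 2 (0.0801) or seed coat library 3 (0.082), and STS without 5 of the 6 mutant libraries (0.0506 to 0.153, all but seed coat library 2) and without Col-0 seed coat library 1 (0.0537). Of 18 cell wall loosening genes 11 were tested, 0 were higher and 2 were lower (4 with total reads as the scaling, and none without library 2 of both mutant tissues): EXP3, an expansin, with 1 read in seed coat and 21 in embryo (ratio of embryo over seed coat 14.1, interval 2.27 to 584), and XTH16 (log2 -3.92, adjusted p = 0.0233; 0.0767 to 0.0916 without seed coat library 1, seed coat library 2 or embryo library 3). Of 22 genes of DNA replication and the cell cycle 8 were tested and 2 were lower, the ribonucleotide reductase subunit RNR2A (log2 -0.56, adjusted p = 0.00131) and CDKB2;1 (-1.53, 0.0309). CDKB2;1 was below 1 CPM in every mutant library and lost its call with the block (0.0571) and without embryo library 1 (0.112), seed coat library 1 (0.118), embryo library 3 (0.0606) or seed coat library 3 (0.106).

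The family to which DIG2 belongs gave 2 calls among 6 tested of 7 members. That share of 33.3% was near the 34.9% of all genes tested. DIG2 itself (AT5G50360, chr5:20505089-20506354, minus strand) measured 165, 106 and 155 CPM in seed coat and 144, 115 and 144 CPM in embryo of the mutant, with library 2 lowest in both tissues (log2 0.08, SE 0.31, adjusted p = 0.865). Its Col-0 means of 161 and 133 CPM were close to these, so reads of the gene alone do not mark the mutant allele. AT5G63350 measured 432, 289 and 414 CPM in seed coat and 242, 176 and 242 CPM in embryo (log2 0.78, adjusted p = 0.0722; 2.2e-05 with the replicate block). AT3G48510, known as DIG1, averaged 19.5 CPM in seed coat and 23.4 CPM in embryo (log2 -0.26), and AT5G40800 averaged 6.95 and 9.23 CPM (log2 -0.41), neither called. AT3G27250 had 4 reads in seed coat and 53 in embryo of the mutant (log2 -3.07, adjusted p = 0.00188) and 0 reads in all Col-0 libraries. The labels pair Atsdr4l-5 with no locus, so whether it disrupts a member of this family was not determined here. The call of AT5G38300 (log2 -1.11, adjusted p = 0.035) was lost without any 1 of embryo libraries 1, 2 and 3 and seed coat libraries 1 and 2 (0.0637 to 0.13), and its direction turned when reads of both strands were counted (0.27).

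The tissue difference of the mutant was set against that of Col-0 for every gene; the 2 contrasts share no library. Of 16238 genes 932 (5.74%) had a tissue difference of another size, 328 (2.02%) with a more positive and 604 (3.72%) with a more negative value in the mutant. With the replicate number as a block there were 2579, of which 835 were more positive and 1744 more negative. Without mutant embryo library 1 there were 476, without seed coat library 1 523, without embryo library 3 563 and without seed coat library 3 518. Of the 932, 368 had the same direction in both genotypes and a smaller size in the mutant, 157 the same direction and a larger size, and 407 opposite signs, of which 93 were called in both genotypes. In Col-0 alone 7575 genes (46.6%) differed between the tissues, 3966 (24.4%) higher and 3609 (22.2%) lower in seed coat. The 4066 genes called in the same direction in both genotypes made up 71.7% of the mutant calls and 53.7% of the Col-0 calls. The median size of the log2 fold change was 0.344 in the mutant and 0.421 in Col-0.

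The smallest p-values of this comparison belonged to genes of several functions. XTH11, a cell wall xyloglucan enzyme, measured 151, 151 and 176 CPM in seed coat and 0.784, 0.399 and 1.12 CPM in embryo of the mutant (log2 7.66), against 75.7 and 4.72 CPM in Col-0 (log2 4.0; difference 3.66, adjusted p = 1.2e-05). LRL1, a bHLH factor of root hair growth, measured 165, 171 and 179 CPM in seed coat and 9.91, 9.43 and 10.6 CPM in embryo of the mutant, against 442 and 68.4 CPM in Col-0 (difference 1.41, adjusted p = 6.0e-05). The gap towards embryo was narrower in the mutant for TCP14, a TCP factor that promotes germination (log2 -1.79 in the mutant and -4.0 in Col-0; difference 2.21, adjusted p = 5.6e-05), and for the beta-glucosidase BGLU44 (-0.80 and -3.25; 2.46, 1.1e-04). The chloride transporter CLC-C was higher in seed coat of the mutant and not of Col-0 (log2 1.57 and -0.97; 2.54, 2.0e-04).

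Among genes more negative in the mutant, BRU6, an auxin-conjugating enzyme of the GH3 family, measured 43.3, 61.0 and 52.8 CPM in seed coat and 33.0, 28.5 and 27.3 CPM in embryo of the mutant, against 259 and 19.8 CPM in Col-0 (difference -2.89, adjusted p = 1.2e-05). NDA1, an alternative NADH dehydrogenase of mitochondria, measured 136, 118 and 139 CPM in seed coat and 107, 112 and 115 CPM in embryo of the mutant, against 62.0 and 13.4 CPM in Col-0 (difference -1.97, adjusted p = 1.7e-05). Within the mutant NDA1 was called only with the block (log2 0.23, adjusted p = 0.0975; 0.035). CSLG3, a cellulose synthase-like protein, averaged 310 CPM in seed coat and 114 CPM in embryo of the mutant, against 179 and 17.5 CPM in Col-0 (difference -1.91, adjusted p = 4.1e-05). SRG1, a dioxygenase-like protein, was lower in seed coat of the mutant (log2 -1.21) and higher in seed coat of Col-0 (0.89; difference -2.09, adjusted p = 5.6e-05). For NSP2, UGT71B6, BRU6, NDA1 and CSLG3 the mean embryo level was higher in the mutant than in Col-0, a contrast of genotypes not tested here. BRU6 also had a lower seed coat level in the mutant (43.3 to 61.0 CPM) than in Col-0 (mean 259 CPM), likewise not tested.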

How the data were processed

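Poly(A) RNA of 12 libraries was sequenced with a strand-marking kit. The authors deposited raw counts of reads per gene from STAR 2.7.9a on the TAIR10 build, after bcl2fastq 2.19 and fastp 0.12.4, per the submitters' processing notes; the reverse-strand count column was used. Reads mapping to several places were tallied apart from the gene counts, at 2.61% to 3.71% of reads in the mutant libraries. Gene counts are not corrected for them. Use of the molecular barcodes to remove duplicates is not stated in the labels. Gene reads numbered 13685009 to 17619031 in the mutant libraries, and intervals and floors cover counting error only.

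From these counts, edgeR 4.0.16 (R 4.3.3) fitted 4 group means to all 12 libraries with TMM scaling. A quasi-likelihood test was used, with Benjamini-Hochberg adjustment at 0.05. Genes were kept if the equivalent of 10 reads was reached in at least as many libraries as the smallest group holds, from any group. They also needed 15 reads in total. Floors are 3 reads per library, and intervals are exact at the 95% level. The fit was also run on simulated counts. These were drawn independently for each library, without shared deviations of libraries of the same number, so the outcome is not used as support here. The alternatives were RLE factors, total reads only, TMM without abundant seed protein genes, no filter, unstranded counts, DESeq2 1.42.0, the mutant libraries alone, a replicate block, a 1.5-fold test and leaving out each library.

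Libraries of the same number deviated together, but the main fit did not use that pairing. A fit with the number as a block was run as an alternative and called 7416 genes, against 5669 in the main fit. A gene without a call in the main fit may therefore be called with the block. Correlations across genes of deviations from group means were 0.403, 0.507 and 0.162 in the mutant and 0.401, 0.456 and 0.274 in Col-0. Mutant embryo library 3 correlated more with seed coat library 1 (0.225). The main calls were made without a block, and blocked values are given beside many results whose call they change. Among the lists the block also gave 9 higher and 3 lower gibberellin genes, 1 and 15 photosynthesis genes, and 8 and 4 glutathione transferases. For embryo markers it gave 2 higher and 13 lower, for seed coat markers 7 and 1, and for maturation regulators 3 and 5.

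The comparison and the 26 gene lists (490 genes, 331 tested, the rest with too few reads) were chosen with earlier results of these data known. Genes were named by rule: the family of DIG2; the 10 largest called changes each way with a symbol, at least 5 CPM and no overlap; up to 4 members of each list with the smallest p; the 6 genes each way whose difference from Col-0 had the smallest p; the 5 most read genes of each tissue; and every tested storage, oil body, maturation, dormancy, abscisic acid metabolism, abscisic acid transporter and endosperm marker gene. Other called list members were named after their values were seen. The labels name no locus for Atsdr4l-5, so the targeted gene was not checked by name. One list member is not reported here.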

Additional observations from a re-analysis of the deposited data

Results flagged for a closer look

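Each result here is a tissue difference that had another size in the mutant than in Col-0, by a test of the difference itself (edgeR, adjusted over all genes tested). Values are the log2 fold change of seed coat over embryo in the mutant minus that in Col-0.

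Among storage, oil body and maturation genes the differences were 1.30 for CRA1, 1.62 for PAP85, 1.46 for SESA5, 0.91 for ATS1, 1.68 for EEL, 2.15 for BBM and -1.64 for FUS3. Among LEA and dormancy genes they were -5.96 for ERD10, 3.82 for AT1G54410, -2.41 for LEA7, -0.88 for LEA14, -1.03 for ERD14, -1.33 for AT3G02480, -0.90 for AT2G23110, -1.51 for AT4G18660 and -0.71 for E12A11. Among abscisic acid genes they were -2.26 for NCED6, -1.70 for CYP707A2, -3.47 for UGT71B6, -1.86 for ABCG25, -5.79 for ABCG31, 2.11 for ABCG30, 2.51 for OST1, 1.42 for PYL2, -2.66 for PYL3, -1.59 for PYL12, -1.27 for PYL13 and -1.05 for ABF2. ERD10 had 0 reads and ABCG31 had 1 read in Col-0 embryo, so the fitted sizes of these 2 depend on the prior count and are no bound.

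Of the myrosinase and MLP lists, NSP2 differed by -5.38, AT1G14930 by -1.90 and AT1G14940 by -1.93. The glutathione transferases GSTF2, GSTF3, GSTU9 and GSTU19 differed by 1.17, 2.27, 0.87 and -1.21, GSTU4, GSTU5 and GSTU7 by -0.71, -0.95 and -0.97, and the flavonoid gene F3H by 3.27. Of the embryo side and the lists of transport and metabolism, the values were -2.16 for PHB, 2.50 for ZPR3, 1.26 for RBCS1A, -0.81 for AAP1, -0.68 for MFP2, -0.47 for ACX1, -0.83 for PKT3, -0.48 for LACS7 and 0.88 for SDP1-LIKE. The rest were 1.33 for RCA, 0.72 for AT1G60950, 2.82 for GL2, 0.96 for ARA12, -1.03 for LTPG1, -1.51 for LOX6, 2.18 for PIP1C and 1.25 for PIP2A.

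The genes chosen for the smallest p of this test had values of 3.66 (XTH11), 1.41 (LRL1), 2.21 (TCP14), 2.46 (BGLU44), 2.54 (CLC-C), -2.89 (BRU6), -1.97 (NDA1), -1.91 (CSLG3) and -2.09 (SRG1).

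Of these 65 calls 20 were lost without at least 1 of the 12 libraries (adjusted p = 0.0503 to 0.206): those of AAP1, ABF2, ACX1, ARA12, AT1G60950, AT3G02480, ATS1, BBM, CYP707A2, E12A11, ERD14, LACS7, LOX6, LTPG1, NCED6, PIP1C, PIP2A, PYL3, PYL12 and PYL13.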

How the results depend on the processing

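With total reads only, 9450 genes were called, 1282 higher and 8168 lower, and OLEO1, ATS1, AT4G11040, STS, GSTU4 and PKT3 turned to -0.31, -0.37, -0.31, -0.053, -0.37 and -0.27. Summed TMM-scaled CPM in place of shares of reads gave log2 ratios of -0.31 for storage proteins (-0.72 by share), -0.0084 for oil body proteins (-0.42), 7.55 for MLP proteins (7.14) and 0.0852 for LEA proteins, a direction opposite to that by share (-0.33). Counting reads of both strands turned AT5G38300 to 0.27. A test against a 1.5-fold difference (glmTreat) called 2115 genes, 1115 higher and 1000 lower, and 202 differences from Col-0, 94 positive and 108 negative.

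The other scalings and filters, reads of both strands, DESeq2 (5487 calls) and the 6 mutant libraries alone gave between 5194 and 5659 calls in the mutant. The replicate block gave 7416 calls, and 2579 differences from Col-0 (835 positive and 1744 negative); it ended 2 calls among the named genes. Leaving out 1 library gave 4483 to 5812 calls (2182 to 2854 higher, 2222 to 2958 lower), and 476 to 844 differences from Col-0 (195 to 323 positive, 270 to 555 negative). Without library 2 of both mutant tissues, an alternative chosen after seeing the data, there were 2455 higher and 2226 lower, and 17 calls of named genes (adjusted p = 0.0501 to 0.19, TGG1 the lowest and GSTU7 the highest) and 13 of their differences from Col-0 (0.0533 to 0.102) were lost. Over all alternatives, the values of named genes within the mutant kept direction and call 4328 times, lost a call 163 times, gained one 130 times and reversed 7 times. The causes were not tested.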

Other observations

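Gene families grouped by the prefix of their symbol gave further counts. Both the grouping and the choice of families from 35 prefixes were made after the data were seen. Of 29 WRKY transcription factors tested, which act in stress and defence, 12 were higher in seed coat and 0 were lower (10 and 4 with total reads as the scaling). Members with hardly any embryo reads, such as WRKY47 and WRKY27 at 0 CPM in all embryo libraries, could only be called higher. The count is therefore a description. WRKY6 measured 57.1, 159 and 82.3 CPM in seed coat and 0.280, 3.32 and 0.236 CPM in embryo, with library 2 highest in both tissues (log2 6.35, edgeR adjusted p = 2.95e-05). Of 29 NAC transcription factors 15 were higher and 5 were lower (7 and 7 with total reads).

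Heat shock proteins went the other way: of 22 tested, 1 was higher and 11 were lower (0 and 19 with total reads). HSP60-2, a chaperonin, averaged 10.8 ± 0.200 CPM in seed coat and 21.5 ± 1.12 CPM in embryo (SD, n = 3 each; log2 -0.99). Hsp70b, an inducible chaperone, averaged 2790 ± 432 CPM in seed coat and 4323 ± 439 CPM in embryo (log2 -0.63, edgeR adjusted p = 0.00928; 0.0516 without seed coat library 2). Ribosomal proteins of the RPL series had 1 higher and 10 lower among 21 tested (1 and 18 with total reads). Those of the RPS series had 1 higher and 5 lower among 24 (1 and 19 with total reads), a share of lower genes near that of all genes tested. Nitrate transporters of the NRT series had 7 higher and 1 lower among 9 (5 and 1 with total reads). Over all genes tested 16.9% were higher and 18.0% lower. With total reads as the scaling 1282 of the 16238 genes were higher and 8168 lower, and the counts in brackets are to be read beside these.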
